A study of Mus musculus with 10 samples.

Results

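The genes described here encode the enzymes that act on a protein after it has been farnesylated, Rce1, Icmt, Zmpste24 and Pcyox1, and the nuclear lamins, Lmna, Lmnb1 and Lmnb2, several of whose products carry that lipid. They were chosen by function, as the probe sets whose platform annotation gives 1 gene symbol equal to one of these names, and all 7 were found among 22180 genes tested. Each had 1 such probe set, so no choice between probe sets had to be made. Expression was measured on 10 one-colour Affymetrix arrays of regulatory T (Treg) cells, which had been sorted by CD4 and YFP from pLN and spleen of mouse chimeras. The 5 WT arrays came from WT chimeras, and the 5 Fntb KO arrays from Foxp3CreFntbfl/fl chimeras, in which Cre made under control of Foxp3, the lineage transcription factor of Treg cells, removes the beta subunit of protein farnesyltransferase in cells that express Foxp3. Both groups passed the same YFP gate. The sources used here do not give the age or strain of the mice, the cells that the chimeras' hosts retained, or any pooling of mice.

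Proteins that end in a CaaX motif, a cysteine followed by a pair of mostly aliphatic residues and a variable one, receive a farnesyl or geranylgeranyl lipid on that cysteine. The protease Rce1 then removes the residues after the cysteine at the endoplasmic reticulum, and the methyltransferase Icmt caps the exposed carboxyl group. B-type lamins, the products of Lmnb1 and Lmnb2, keep the farnesylated tail, whereas prelamin A, made from Lmna, loses it when Zmpste24 cuts the protein once more. Lamin C, also made from Lmna, ends without a CaaX motif. When prenylated proteins are degraded, Pcyox1 splits the remaining prenylcysteine in lysosomes. Lamins form the meshwork under the inner nuclear membrane. In lymphocytes B-type lamins are the usual ones, and A-type lamins are low in resting cells. Without farnesyltransferase the substrates of these enzymes change, and the comparison asks whether the transcripts of the downstream enzymes and of the lamins differ as well.

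The median log2 value of an array lay between 4.09 and 4.25. It was lowest in WT 2, Fntb KO 1 and Fntb KO 2, in which the median level of 71 mitochondrial ribosomal protein genes reached up to 7.11 and exceeded that of each other array (6.35 to 6.69). Values without these 3 arrays are given beside the results that they touch. Fntb itself was lower in all 5 Fntb KO arrays, at a difference of -0.65 (SE 0.0963, limma adjusted p = 0.00442). The probe set may reach outside the deleted part, so this checks the labels only in part. The mean level of 9 T cell and Treg markers ran from 10.27 to 10.43 over WT arrays and from 10.13 to 10.29 over Fntb KO arrays, and none of the 9 lay below 4.19. That level, under which 95% of the 1105 olfactory receptor genes fell, serves as a guide to the level of transcripts that T cells lack. Below the guide lay 1 of 4 measured B cell markers (Ms4a1) and 4 of 5 CD8 T and NK cell markers. So did 4 of 9 myeloid markers and 6 of 8 stromal and endothelial markers, among them Col1a1, Pdgfrb and Kdr. The rest lay above it, among them Cd79b (WT mean 5.46), Cd8b1 (6.75), Cd68 (6.82), Pecam1 (9.16) and Vim (9.92). In each marker list the gene with the largest difference was Ikzf2 (-0.41), Cd79b (-0.41), Cd8b1 (0.27), S100a8 (1.05) and Pdgfrb (0.28), and none of these passed the threshold. The SD of S100a8 was 0.25 in WT and 1.03 in Fntb KO, and S100a9 differed by 0.66 (limma adjusted p = 0.546). Of the 9 myeloid markers, 6 had a positive difference and 3 a negative one. Of the 9 T cell and Treg markers, 8 had a negative difference and 1 a positive one. For 2 of the 9 the groups of arrays did not overlap, against 2.67% of all genes. These were Foxp3, at -0.14 (limma unadjusted p = 0.0705, adjusted p = 0.601), and Ctla4, at -0.39 (limma unadjusted p = 0.00108, adjusted p = 0.0778). The two-sided exact permutation p of Foxp3, 0.00794, is unadjusted and the lowest that 5 against 5 arrays allow. Groups that do not overlap always give this value, so it adds nothing to the lack of overlap.

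No transcript of the CaaX processing enzymes or the lamins was called different between Fntb KO and WT. In limma, with Benjamini-Hochberg adjustment over all 22180 genes and a threshold of 0.05, 0 of 7 were higher and 0 of 7 lower, where 1.11% of all genes passed (0.302% higher and 0.807% lower). At an unadjusted p under 0.05 there was 1 of 7, Lmnb2, against 9.26% of all genes. For none of the 7 did the 2 groups of arrays separate, as they did for 2.67% of all genes. The differences ran from -0.21 (Lmnb1) to 0.32 (Lmnb2), with 4 positive, 3 negative and a median of 0.06, while the median over all genes was 0.01 and 5th and 95th percentiles were -0.25 and 0.24. The samples are bulk RNA of sorted cells, so a lower level per cell and fewer cells with the transcript cannot be told apart.

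**Figure D1:**
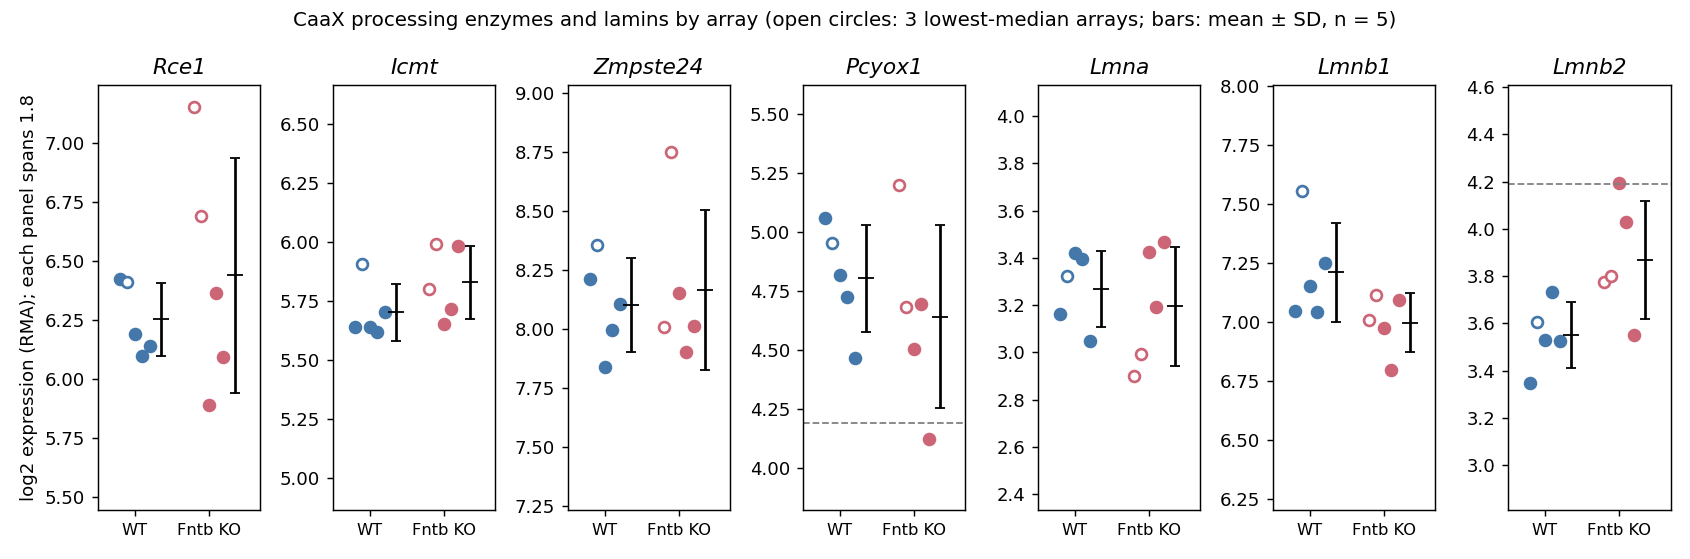
Log2 expression (y axis, RMA values) of the 7 genes in each array, with WT in blue and Fntb KO in red, and black bars for the mean ± SD of 5 arrays. Open circles are WT 2, Fntb KO 1 and Fntb KO 2, the dashed line is the guide level of 4.19 where it falls in the panel, and in every panel the groups overlap.

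Of the enzymes, Rce1, the endoprotease of the first step after prenylation, was the most variable among Fntb KO arrays. Its log2 level was 6.42, 6.41, 6.19, 6.099 and 6.14 in WT 1 to 5. In Fntb KO 1 to 5 it was 7.15, 6.69, 5.89, 6.37 and 6.095. Both arrays above the whole WT range, Fntb KO 1 and Fntb KO 2, belong to the 3 arrays with low medians, while Fntb KO 3 and, by a narrow margin, Fntb KO 5 lay below the WT range. Between means of 6.25 ± 0.15 and 6.44 ± 0.50 (SD, n = 5 each) the difference was 0.19 (SE 0.192), with a limma adjusted p of 0.861. Without Fntb KO 1 the difference was 0.01, and without the 3 low-median arrays the sign turned, to -0.10 (adjusted p = 0.852). Its pooled SD of 0.37 lay above that of 93.5% of the 2492 genes with a similar mean level (within 0.5), whose median SD was 0.21.

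Icmt, the methyltransferase that acts after Rce1, had the smallest spread of the 4 enzymes. It stood at 5.64, 5.91, 5.64, 5.62 and 5.70 in WT 1 to 5 on the log2 scale. In Fntb KO 1 to 5 the values were 5.80, 5.99, 5.65, 5.72 and 5.99. WT 2 was the highest WT array, and Fntb KO 2 and Fntb KO 5 exceeded every WT array, but the ranges overlapped. The difference was 0.13 (SE 0.0954, means 5.70 ± 0.12 and 5.83 ± 0.15, SD, n = 5 each), with a limma adjusted p of 0.775. The 95% interval of this difference, -0.08 to 0.33, corresponds to at most a 1.06-fold decrease or a 1.26-fold increase. It was the only one of the 4 enzymes whose pooled SD (0.14) lay below the median SD of genes of similar level (0.22).

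Zmpste24, the zinc protease that releases mature lamin A, was well above the guide level on every array. WT 1 to 5 had 8.21, 8.36, 7.84, 7.995 and 8.11 on the log2 scale. Fntb KO 1 to 5 had 8.01, 8.75, 8.15, 7.91 and 8.01. Apart from Fntb KO 2, the Fntb KO arrays lay inside the WT range. The difference of 0.06 (SE 0.151, means 8.10 ± 0.20 and 8.17 ± 0.34, SD, n = 5 each) had a limma adjusted p of 0.960. Its 95% interval ran from -0.26 to 0.39, or from 1.20-fold lower to 1.31-fold higher. Without Fntb KO 2 the difference was -0.08 and without the 3 low-median arrays -0.01, so the data give no direction for this gene.

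Pcyox1, which oxidises prenylcysteine during breakdown of prenylated proteins, was measured closer to the guide level. WT 1 to 5 had 5.06, 4.95, 4.82, 4.73 and 4.47 on the log2 scale. Fntb KO 1 to 5 had 5.20, 4.68, 4.50, 4.69 and 4.12. Fntb KO 1 was above and Fntb KO 5 below every WT array, and Fntb KO 5 was the only array below 4.19. The means were 4.80 ± 0.23 and 4.64 ± 0.39 (SD, n = 5 each), and the difference of -0.16 (SE 0.169) had a limma adjusted p of 0.862. It became -0.03 without Fntb KO 5, and -0.33 (adjusted p = 0.515) without the 3 low-median arrays. Its paralog Pcyox1l differed by 0.05 (SE 0.108, adjusted p = 0.961), from 4.70 ± 0.11 to 4.74 ± 0.22 (SD, n = 5 each).

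**Figure D2:**
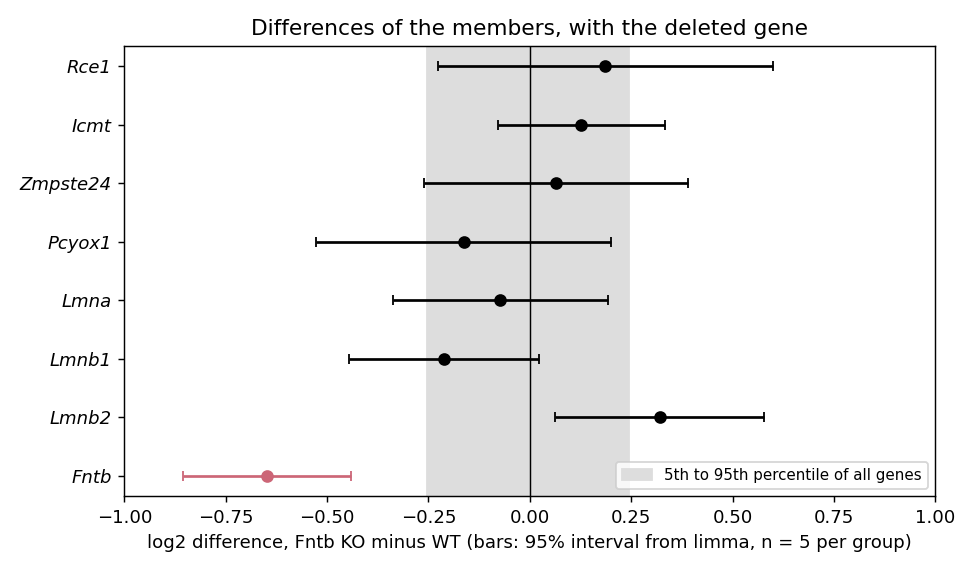
Log2 difference between Fntb KO and WT (x axis, positive means higher in Fntb KO) for the 7 genes and for Fntb, with 95% intervals from limma over 5 arrays per group. The grey band holds the 5th to 95th percentiles of all genes, -0.25 to 0.24, and of the 7 genes only Lmnb2, at 0.32, lies outside the band.

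Among the lamins, Lmnb1 was clearly measured, and Lmna and Lmnb2 were near or below the guide level. Lmnb1, a B-type lamin that stays farnesylated, had log2 levels of 7.05, 7.55, 7.15, 7.04 and 7.25 in WT 1 to 5. In Fntb KO 1 to 5 it had 7.01, 7.11, 6.97, 6.80 and 7.09. All 5 Fntb KO arrays lay below the WT mean and 3 of them below every WT array, while Fntb KO 2 and Fntb KO 5 lay within the WT range. With means of 7.21 ± 0.21 and 6.997 ± 0.13 (SD, n = 5 each), the difference was -0.21 (SE 0.109). It did not pass in limma (adjusted p = 0.602). The exact permutation test, two-sided, gave p = 0.0794, where 5 against 5 arrays allow no p below 0.00794. The 95% interval ran from -0.45 to 0.02, or from 1.36-fold lower to 1.02-fold higher. WT 2, one of the low-median arrays, was the highest of all, and the difference was -0.13 without it and -0.17 without the 3 low-median arrays.

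Lmnb2, the other B-type lamin, had the largest difference of the 7 genes. WT 1 to 5 had 3.35, 3.61, 3.53, 3.73 and 3.53 on the log2 scale. Fntb KO 1 to 5 had 3.77, 3.80, 4.20, 4.03 and 3.55. In Fntb KO 4 of 5 arrays were above every WT array, and Fntb KO 5 lay inside the WT range. With means of 3.55 ± 0.14 and 3.87 ± 0.25 (SD, n = 5 each), the difference was 0.32 (SE 0.120, 95% interval 0.06 to 0.58), or 1.25-fold. Its unadjusted limma p was 0.0186, its exact permutation p, two-sided, was 0.0317, and its limma adjusted p over all genes 0.370, which did not pass. Permutation tests were run for each of the 7 genes, and the exact p of the others was 0.0794 or above. Only 1 of the 10 arrays, Fntb KO 3, exceeded the guide level of 4.19, and then by less than 0.01. Without the 3 low-median arrays the difference was 0.39 (adjusted p = 0.400).

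Lmna, which encodes the A-type lamins, lay below the guide level on all 10 arrays. Its log2 level was 3.16, 3.32, 3.42, 3.40 and 3.05 in WT 1 to 5. In Fntb KO 1 to 5 it was 2.90, 2.99, 3.43, 3.19 and 3.47. The Fntb KO arrays reached both below and above the WT range. The difference of -0.07 (SE 0.123, means 3.27 ± 0.16 and 3.20 ± 0.25, SD, n = 5 each) had a limma adjusted p of 0.935. Without the 3 low-median arrays it was 0.11, and without Fntb KO 1 it was 0.00 to 2 decimals, so no direction can be given. At this level RMA values understate a true change. Which Lmna products the single probe set covers was not checked, so those that end in a CaaX motif cannot be told apart from lamin C here.

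The 3 low-median arrays differed from the others in several of these genes within the genotypes. With genotype in the model they were higher by 0.56 in Rce1, 0.37 in Pcyox1, 0.34 in Zmpste24, 0.24 in Lmnb1 and 0.17 in Icmt, and they were lower in Lmna (-0.22) and Lmnb2 (-0.06). In all of these genes except Lmnb2 that shift was larger in size than the difference between the genotypes over all 10 arrays. With those arrays as a block, the differences between the genotypes were 0.07 for Rce1, 0.09 for Icmt, -0.0035 for Zmpste24, -0.24 for Pcyox1, -0.03 for Lmna, -0.26 for Lmnb1 and 0.33 for Lmnb2. The lowest adjusted p among them was 0.250, for Lmnb1.

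**Figure D3:**
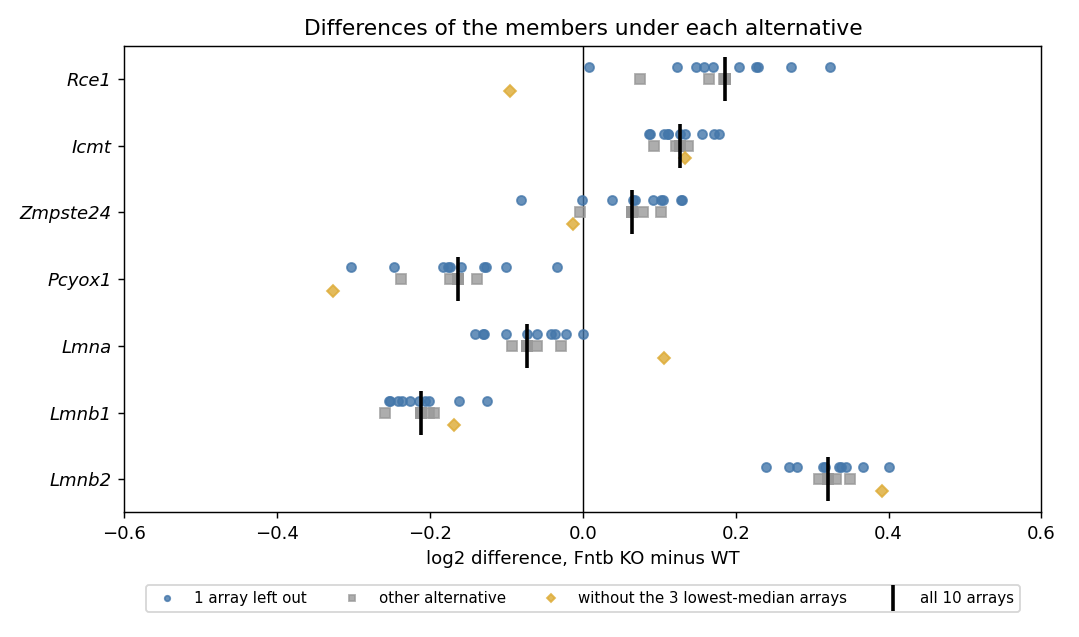
Log2 difference between Fntb KO and WT (x axis) for each of the 7 genes with all 10 arrays (black line), with 1 array left out (blue), without the 3 low-median arrays (yellow) and under the other alternatives (grey). Icmt, Pcyox1, Lmnb1 and Lmnb2 kept their sign throughout, and Rce1, Zmpste24 and Lmna crossed 0. Several of the grey alternatives repeat the value of all 10 arrays by construction.

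Genes whose level followed that of a member from array to array were sought among about 10060 genes at or above the median level, after each group's mean was subtracted, and the 3 with the highest Pearson r over the 10 arrays are given. For Rce1 these were Mtln (0.98), Hnrnpl (0.97) and Bet1l (0.96). Icmt was followed by Nipsnap1 (0.96), Rars2 (0.94) and Exog (0.94), and Zmpste24 by Rps7 (0.97), Ccnj (0.96) and Jmjd4 (0.95). Pcyox1 was followed by Chchd7 (0.96), Akr1b10 (0.96) and Zscan29 (0.96). For the lamins they were Kctd12 (0.97), Gtf3c1 (0.94) and Ulk4 (0.93) for Lmna, Klhdc10 (0.96), Sbno1 (0.95) and Man2a1 (0.94) for Lmnb1, and Bcl2l13 (0.93), Ccdc50 (0.92) and Rnf19a (0.92) for Lmnb2. These values are the top of a search over many genes and 10 arrays, and they describe these arrays only. Over the 7 arrays left without the low-median ones, r of these genes ran from 0.76 (Jmjd4) to 0.97 (Akr1b10). No member was among the 3 nearest genes of another, but Lmna and Lmnb2, below the median level, could not be found by this search. Between members, r over the 10 arrays ran from -0.79 (Rce1 and Lmna) to 0.83 (Icmt and Lmnb1), with Rce1 and Pcyox1 at 0.82. Without the low-median arrays these 3 pairs had -0.53, 0.66 and 0.58.

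The partners of the lamins in the nuclear envelope showed no call either. Of 17 measured genes, 0 rose and 0 fell, and 0 had an unadjusted limma p under 0.05, where 9.26% of all genes did. The median difference of the 17 was -0.05, with 11 negative and 6 positive values between -0.25 and 0.16. The largest were Narf, whose product binds prelamin A, at -0.25 (SE 0.174, adjusted p = 0.746), and Lbr, the lamin B receptor of the inner nuclear membrane, at -0.18 (SE 0.108, adjusted p = 0.669). Without Fntb KO 3 the difference of Narf was only -0.08. The log2 level of Lbr went from 8.73 ± 0.12 to 8.55 ± 0.21 (SD, n = 5 each).

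**Figure D4:**
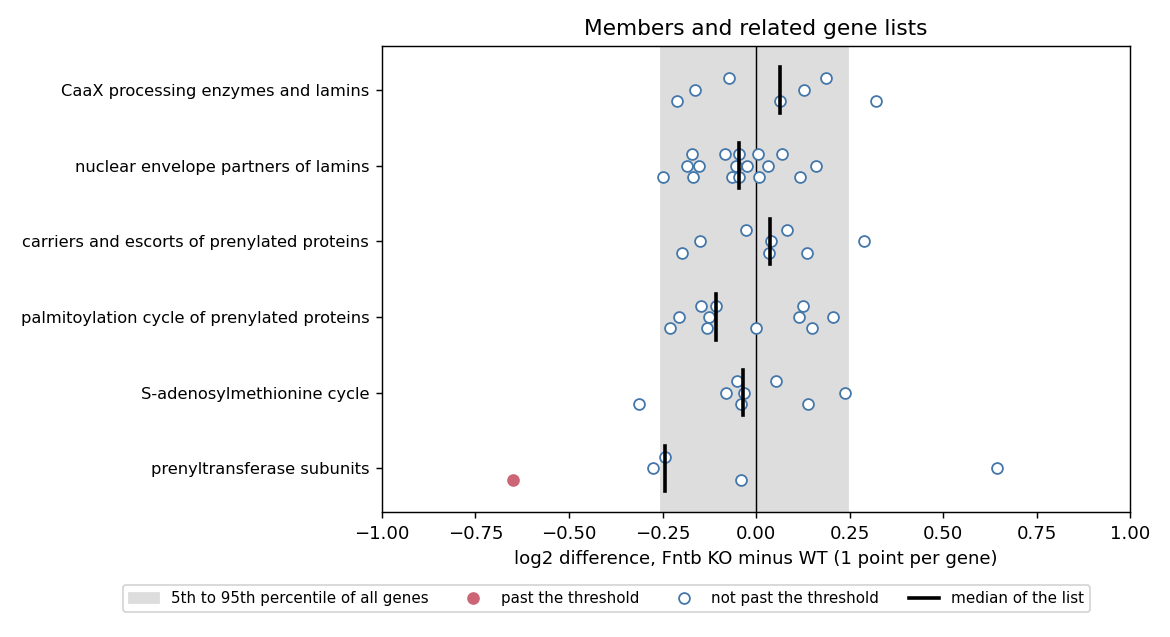
Log2 difference between Fntb KO and WT (x axis) of each gene in the 7-gene set and in 5 related lists, with the median of each list as a black line and the 5th to 95th percentiles of all genes in grey. Fntb, at -0.65, is the only filled point, which marks genes past the threshold.

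Genes that handle prenylated or other lipidated proteins were examined in the same way. Of 8 measured carriers and escorts of lipidated proteins, counted with GTPases that release their cargo, 0 rose and 0 fell. At an unadjusted limma p under 0.05 there were 0, against 9.26% of all genes, and the median difference of the 8 was 0.04. Arl3, a GTPase that releases lipidated cargo, was at 0.29 (SE 0.163, adjusted p = 0.658) and Unc119, a carrier of lipidated proteins, at -0.20 (SE 0.256, adjusted p = 0.900). Arl3 was at 0.17 without WT 1. Unc119 turned to 0.08 without Fntb KO 5, where it was 3.96 against 5.22 to 5.61 in the other Fntb KO arrays. Of 11 genes of the palmitoylation cycle, which adds or removes a second lipid on some CaaX proteins, 0 rose and 0 fell in limma. Their median was -0.11, and 1 of the 11 had an unadjusted limma p under 0.05, against 9.26% of all genes. That gene was Zdhhc18, a palmitoyltransferase, at -0.23 (SE 0.0877, adjusted p = 0.390), and Abhd17b, a depalmitoylating hydrolase, was at -0.21 (SE 0.118, adjusted p = 0.658). Zdhhc14 was nearly as far in the other direction, at 0.21 (SE 0.0976, adjusted p = 0.550). Of the 11 differences 7 were negative and 4 positive.

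Icmt takes its methyl group from S-adenosylmethionine, so the genes of that cycle were included. Of the 9 listed, Mat2a had no probe set named with 1 symbol and was not measured. Of 8 measured members 0 rose and 0 fell in limma, and the median difference was -0.04. An unadjusted limma p under 0.05 was found for 1 of the 8, against 9.26% of all genes. Adk, the adenosine kinase that clears a product of the cycle, went from 7.10 ± 0.13 to 6.79 ± 0.25 (SD of log2 levels, n = 5 each), a difference of -0.31 (SE 0.119, adjusted p = 0.387). Gnmt, a glycine methyltransferase whose mean level lay below 4.19 in both groups, differed by 0.24 (SE 0.127, adjusted p = 0.625). The difference was 0.15 without Fntb KO 2, where Gnmt was at 4.29. Of the 5 prenyltransferase subunits, which act before the CaaX enzymes, 1 fell, the deleted Fntb, and 0 rose. An unadjusted limma p under 0.05 was found for 3 of the 5, Fntb among them, against 9.26% of all genes. The others of these 3 were Pggt1b, whose product adds geranylgeranyl to CaaX proteins, at -0.24 (SE 0.103, adjusted p = 0.468), and Rabggtb, the beta subunit of the Rab prenyltransferase, at 0.64 (SE 0.257, adjusted p = 0.423). Both are named after their values were seen. The list's median difference was -0.24, and the deletion itself contributes to it.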

How the data were processed

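The values deposited by the authors are log2 expression values from RMA in Affymetrix Expression Console 1.1, per the submitters' processing notes; RMA corrects the background, quantile-normalizes the arrays and summarises probe sets. The authors' table and the series matrix held identical values. Of 41345 probe sets, 23521 had 1 gene symbol in GEO's platform annotation; 1820 with several symbols and 16004 not listed were left out. Symbols were looked up in RefSeq by Entrez identifier (23328 matched, 0 changed). For 1082 genes with several probe sets the one with the highest mean was kept, leaving 22180 genes. Groups follow the labels' genotype. The main test was limma 3.58.1 (R 4.3.3, statmod 1.5.0), with lmFit and eBayes, no covariate, no filter on dim genes and Benjamini-Hochberg adjustment over all genes. Its estimates were checked on simulated arrays with independent noise for each gene. That simulation held no shift shared by arrays, so it does not cover the low-median arrays. Adjusted p-values come from the main test unless another fit is named beside the value (arrays left out, the low-median arrays as a block, or limma's treat). Intervals are per gene and not adjusted. Exact permutation tests used scipy 1.17.1 over 252 assignments. Other cells' markers, and related lists with their largest 2 differences where none passed, were described by counts without set tests. List members with no probe set named with 1 symbol were not used here. The members and lists were chosen with earlier results of these data known. The labels do not say that samples of a group came from separate mice, so p-values cover only the sample-to-sample spread, possibly a technical one; the number of arrays limits precision. No raw array files were used here.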

Additional observations from a re-analysis of the deposited data

Results flagged for a closer look

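Of 36 combinations of a named gene and a group, 1 held an array far from the others, where chance gives about 1.8. Unc119 was 3.96 on the log2 scale in Fntb KO 5, and the nearest Fntb KO array was at 5.22. The gap made up 0.763 of the group's range, above the critical value of 0.71 for 5 samples.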

How the results depend on the processing

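Under the 20 alternatives, 0 of the 7 genes passed the threshold in either direction, and the same held for the lists of nuclear envelope, carrier, palmitoylation and S-adenosylmethionine genes. Icmt (0.09 to 0.18), Pcyox1 (-0.33 to -0.03), Lmnb1 (-0.26 to -0.13) and Lmnb2 (0.24 to 0.40) kept their direction in every alternative that could be run for them. Several alternatives could not move a difference of the 7 genes, which have 1 probe set each. These were the settings on probe sets, the authors' table, the level filter, eBayes with trend and treat, which can change only the p-value. Lmna, Lmnb2 and Gnmt drop out when genes under the median level are left out. Without the 3 arrays with the lowest medians Rce1 reversed to -0.10, Zmpste24 to -0.0135 and Lmna to 0.11, and with those arrays as a block Zmpste24 was at -0.00353. Leaving out each array in turn gave -0.0814 to 0.130 for Zmpste24, -0.141 to 0.000126 for Lmna (the positive value without Fntb KO 1), 0.00827 to 0.323 for Rce1, -0.326 to 0.0844 for Unc119 and -0.0455 to 0.0957 for Pcyox1l. Fntb ran from -0.68 to -0.59 and lost its call only in the test against a minimum log2 change of 0.5 (difference -0.65, adjusted p = 1), where 0 prenyltransferase subunits were lower. Over all genes the calls ranged from 20 to 275 lower and from 4 to 93 higher. The cause of these shifts was not tested. Array numbers such as WT 1 and Fntb KO 1 follow the order of the samples within each group and do not mark pairs. No paired analysis was possible because the labels give no replicate numbers and name no pairs. Lmna on every array and Lmnb2 on 9 of 10 lay below the guide level of 4.19, which limits what their differences can show.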

Other observations

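Rabggtb, the beta subunit of the prenyltransferase of Rab proteins, was looked at after its value was seen. Its difference of 0.64 was the largest in size of the prenyltransferase subunits other than Fntb (SE 0.257, limma adjusted p = 0.423), and it did not pass. The log2 levels were 5.53, 6.04, 5.21, 5.91 and 5.28 in WT 1 to 5, and 6.09, 7.21, 5.51, 6.12 and 6.26 in Fntb KO 1 to 5. Fntb KO 2, one of the low-median arrays, was the highest, and WT 2, another of them, was the highest WT array. The difference was 0.40 without Fntb KO 2 (adjusted p = 0.534) and 0.48 without the 3 low-median arrays (adjusted p = 0.438).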
